A study of Homo sapiens with 52 samples.

Results

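UNC0638, a small-molecule inhibitor of the histone methyltransferases G9a and GLP, was one of the compounds given to fusion-positive rhabdomyosarcoma (FP-RMS) cells in a screen read out by RNA-seq, and 2 of the 52 libraries of the series came from cells exposed to it. One library came from cells treated with 10 µM and the other from cells treated with 1 µM, each for 6 h. They were set against the 4 DMSO (solvent) libraries of the screen, 2 at 0.2% and 2 at 0.1% DMSO, also taken at 6 h. Genes with at least 1 TPM (transcripts scaled by gene length and library size to a fixed total) in at least 2 of these 6 libraries were kept, which left 13867 of the 27043 genes listed, and 256 of these passed only with the help of the UNC0638 libraries. Among the listed genes these were FOS, NR4A2, PHLDA2, SNRPN, OASL, SLC2A3 and SYCP3, and leaving them out changed the number of calls against DMSO in the immediate early list alone. FP-RMS is a childhood muscle-lineage sarcoma driven by a fusion of PAX3 and FOXO1, and all treated and control cells carried that fusion. The titles name the line RH41 and the cell-line label names it RH4, both of which are FP-RMS lines, and which of them was used was not settled here. The question put by the screen was which inhibitors of chromatin proteins lower the core regulatory transcription factors (CR TFs) of this tumour.

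G9a (gene EHMT2) and GLP (gene EHMT1) work as a pair and place one or a pair of methyl groups on lysine 9 of histone H3, a mark of silenced euchromatic genes. WIZ and ZNF644 are zinc finger proteins that bring the pair to chromatin. Cholesterol synthesis genes, which take up much of what follows, are switched on by the SREBP factors when sterol in the endoplasmic reticulum runs low, and INSIG1, itself an SREBP target, holds SREBP back. Immediate early genes such as EGR1 and FOS are transcribed within minutes of growth factor or stress signals, without new protein synthesis.

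Each dose was a single library, so no dose had a replicate and single-dose differences from DMSO are given without a test. The 2 UNC0638 libraries held 6849914 (10 µM) and 6508337 (1 µM) reads, worked out from the TPM values, against 16772069 to 22400976 in the DMSO libraries and 5737938 to 41415068 over the 44 libraries of the screen. By the flow cell code in the library names, no DMSO library shared the flow cell of UNC0638, so treatment and flow cell cannot be told apart against DMSO. The 6 other methylation-axis inhibitors on that flow cell (EZ-005, LSD-519, LSD-690, PFI-2, SGC0946 and UNC1999, each at 10 µM and 1 µM) therefore served as a second reference. The DMSO libraries differed by concentration with a variance 3.55 times that of counting over 10378 genes, and by flow cell with 4.08 times, while 1.02 times was left after both. Libraries of the same DMSO concentration were therefore counted as 1 sample in each mean ± SD (n = 2 concentrations). Nothing in the labels says that libraries came from separate cultures, so p-values measure only the spread between these samples, and in bulk RNA fewer cells of a type and less RNA per cell cannot be told apart.

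UNC0638 at 10 µM changed the transcriptome widely, and at 1 µM little. At 10 µM, 1002 genes (7.23% of those tested) were at least 2-fold higher than the DMSO mean on the log2(TPM + 1) scale and 2325 (16.8%) at least 2-fold lower. At 1 µM the counts were 140 (1.01%) and 250 (1.8%), or 2.81% in all against 24.0% at 10 µM. By the number of genes past 2-fold in either direction, 3327 and 390, the libraries ranked 4 and 18 among the 40 compound libraries of the screen. The 6 other inhibitors of the flow cell gave 298 to 503 such genes at 10 µM and 217 to 368 at 1 µM, and single DMSO libraries set against the other DMSO libraries gave 128 to 168. The median gene was lower by 0.23 (log2) at 10 µM and by 0.10 at 1 µM. After median-ratio scaling these medians came to −0.10 and −0.03, and 40.0% rather than 30.1% of the genes past 2-fold at 10 µM were then higher. Values below are as deposited, with the median of all genes given for comparison.

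With both doses averaged and all 44 libraries sharing an estimate of spread, limma called 974 genes (7.02%) higher and 3179 (22.9%) lower than DMSO at an adjusted p below 0.05, or 29.9% in all. After median-ratio scaling the counts were 1570 and 2370, so the share of higher genes moved from 23.5% to 39.8%. Of the 974 higher genes, 873 changed more at 10 µM than at 1 µM, with median changes of 1.07 and 0.19 (log2). Of the 3179 lower genes, 2944 did so, with medians of −1.05 and −0.28. The calls rest on the 10 µM library: without it 70 genes were higher and 190 lower, and without the 1 µM library 2573 and 4904. This fit takes the 4 DMSO libraries as separate samples, and with them averaged per concentration 397 genes were higher and 1783 lower, and 65 of 100 named genes kept their call. The fit on the 2 UNC0638 and 4 DMSO libraries alone called 8 and 19, and limma with array weights, which gave both UNC0638 libraries the lowest weight of the 44 (0.0763), called 0 and 0, with 164 and 1014 genes at an unadjusted p below 0.05. Both doses of a compound form 1 group in that fit and share a weight. A low weight thus reflects a wide gap between the doses and is no measure of library quality.

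Against the 6 other inhibitors of the flow cell, 2175 genes (15.7%) were higher and 4581 (33.0%) lower at 10 µM by limma, and 10 (0.0721%) and 95 (0.685%) at 1 µM, or 48.7% and 0.757% in all. In these fits the lone UNC0638 library is assumed to vary like the other compounds. Scaling moved the share of higher genes from 32.2% to 45.8% at 10 µM, and from 9.52% to 44.9% at 1 µM. A total of 743 genes (5.36%) were called higher and 2577 (18.6%) lower both against DMSO and against the flow cell at one dose or more.

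The gene of the GLP target itself was lower in both treated libraries. EHMT1 (hg19 chr9:140513444-140730578) stood at 41.8 TPM at 10 µM and 62.3 TPM at 1 µM. In DMSO it stood at 84.1 and 87.6 TPM (0.2%) and at 86.8 and 87.6 TPM (0.1%), a mean of 86.5 ± 0.962 (SD, n = 2 concentrations). Both treated libraries lay below all 4 DMSO libraries, and below the 6 other inhibitors of the flow cell, which ranged from 68.2 to 76.2 TPM at 10 µM and from 71.8 to 78.7 TPM at 1 µM. EHMT1 fell by 0.75 ± 0.16 (log2 fold change ± SE, limma, adjusted p = 0.00183) over both doses. Against the flow cell it was lower by 0.77 at 10 µM (limma adjusted p = 8.07e-06), while the difference of −0.26 at 1 µM missed the threshold (adjusted p = 0.135). EHMT2, the gene of G9a, was listed at 0 in 44 of 44 libraries, and no value can be given for it.

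Of the 5 genes of the G9a/GLP complex list, 4 were tested, 1 rose and 2 fell against DMSO, beside 7.02% and 22.9% of all genes. WIZ stood at 21.7 TPM at 10 µM and 31.5 TPM at 1 µM against 40.8 to 42.0 TPM in DMSO, and it fell by 0.64 ± 0.17 (log2, limma adjusted p = 0.00736). ZNF644 stood at 126 TPM at 10 µM and 61.9 TPM at 1 µM against 61.0 to 65.8 TPM in DMSO, with a log2 fold change of 0.48 ± 0.18 (limma adjusted p = 0.0388). WIZ was thus below every DMSO library at both doses, and ZNF644 above them at 10 µM alone. The call of ZNF644 was lost on leaving out any of the 4 DMSO libraries, with DMSO averaged per concentration and with the flow cell as reference. Without the 10 µM library 0 members of this list were called by limma, with 1 lower at an unadjusted p below 0.05. Among 15 other writers and readers of H3K9 methylation, 0 rose and 2 fell: TRIM28, the co-repressor that recruits SETDB1, by 0.58 ± 0.10 (log2, adjusted p = 0.000334), and DNMT3B, a DNA methyltransferase, by 1.06 ± 0.29 (adjusted p = 0.00867). Among 12 H3K9 demethylases, 0 rose by limma (1 at an unadjusted p below 0.05) and 2 fell. KDM1A stood at 106 TPM at 10 µM, 263 TPM at 1 µM and 252 to 259 TPM in DMSO, and KDM4B at 8.35, 17.2 and 22.2 to 22.9 TPM. The demethylase list differed by dose, with a median change of 0.49 at 10 µM and −0.28 at 1 µM, against −0.23 and −0.10 over all genes. Of its 12 genes, 7 were above the DMSO mean at 10 µM and 2 at 1 µM. Within the flow cell at 10 µM, 4 were higher and 4 lower by limma, beside 15.7% and 33.0% of all genes.

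**Figure D1:**
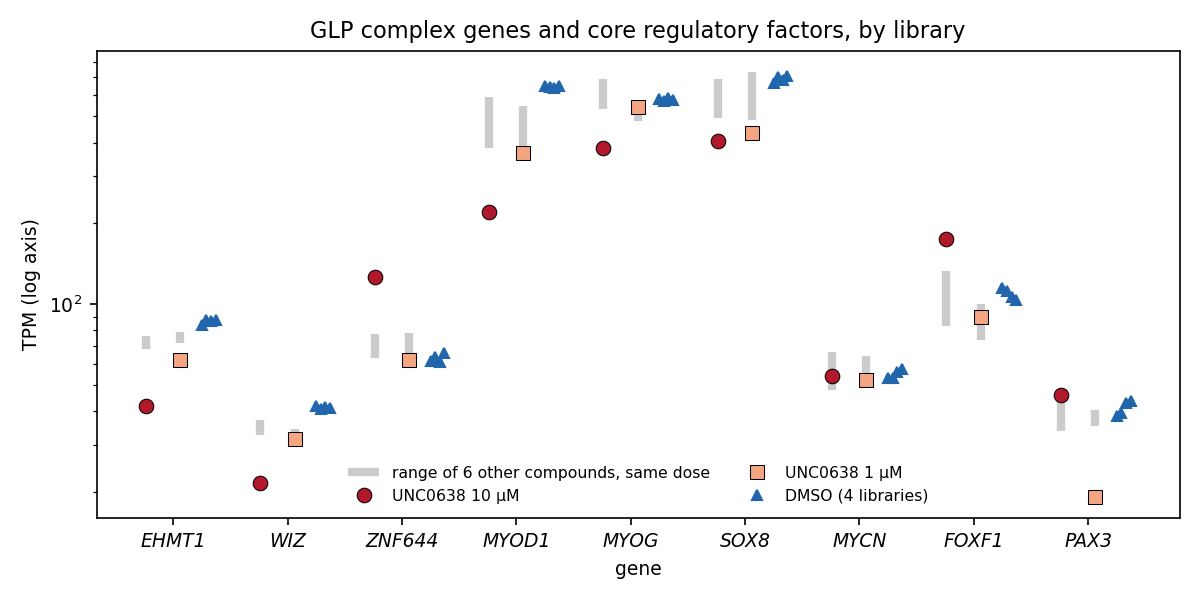
TPM (log axis) of 3 genes of the G9a/GLP complex and 6 CR TFs in each UNC0638 library (circle, 10 µM; square, 1 µM) and in the 4 DMSO libraries (triangles), with grey bars for the range of the 6 other inhibitors of the flow cell at the same dose. EHMT1 at 41.8 and 62.3 TPM lies below both references, and PAX3 at 1 µM (19.3 TPM) lies below all other points of that gene.

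The CR TFs of FP-RMS did not move as a block. MYOD1, the master regulator of the muscle lineage, stood at 221 TPM at 10 µM and 366 TPM at 1 µM. In DMSO it stood at 647 and 641 TPM (0.2%) and at 640 and 648 TPM (0.1%). Both treated libraries lay far below every DMSO library, but the 6 other inhibitors of the flow cell, at 380 to 592 TPM (10 µM) and 366 to 545 TPM (1 µM), were also below DMSO. MYOD1 fell by 1.18 ± 0.30 (log2, limma adjusted p = 0.00504) against DMSO. Within the flow cell it was lower by 1.09 at 10 µM (adjusted p = 0.00144) and the difference at 1 µM was −0.28 (adjusted p = 0.61). SOX8, a SOXE-family factor, stood at 406 TPM at 10 µM, 433 TPM at 1 µM and 664, 701, 680 and 707 TPM in DMSO. It was lower than all 4 DMSO libraries at both doses and fell by 0.71 ± 0.14 (adjusted p = 0.000899), but within the flow cell its difference of −0.48 at 10 µM missed the threshold (adjusted p = 0.0876).

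MYOG, which drives terminal muscle differentiation, stood at 382 TPM at 10 µM, 544 TPM at 1 µM and 572 to 587 TPM in DMSO, and its fold change over both doses missed the threshold (−0.34 ± 0.38, adjusted p = 0.509). Within the flow cell MYOG was lower at 10 µM by 0.58 (adjusted p = 0.00115). FOXF1, a forkhead factor, stood at 175 TPM at 10 µM, 89.4 TPM at 1 µM and 104 to 115 TPM in DMSO, and it was higher than in the other inhibitors at 10 µM by 0.78 (adjusted p = 0.00554). MYCN, the MYC-family oncogene, stood at 54.0, 52.3 and 53.3 to 57.5 TPM, and neither reference called it. PAX3, whose reads cannot be told apart from those of the fusion's 5′ part, stood at 45.8 TPM at 10 µM, 19.3 TPM at 1 µM and 38.6, 39.4, 43.1 and 43.9 TPM in DMSO. The 1 µM library was thus the lowest and the 10 µM library the highest of the 6, and the other inhibitors at 1 µM held 35.3 to 40.6 TPM. The difference at 1 µM within the flow cell was −0.95 ± 0.13 (limma adjusted p = 0.00639). Summed over the 6 CR TFs, the level was 1283 TPM at 10 µM and 1504 TPM at 1 µM against 2096 to 2136 TPM in DMSO, or ranks 37 and 33 of 44 from the top. The other inhibitors of the flow cell were also below DMSO in this sum, at 1579 to 1997 TPM (10 µM) and 1495 to 2009 TPM (1 µM). Their range holds the 1 µM value of UNC0638, while its 10 µM value lies below them. With the 10 µM library left out, 1 CR TF rather than 2 was called against DMSO.

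Among the FP-RMS markers, MYOD1, MYOG, DES, FGFR4 and CHRNA1 were expressed in every library, while CDH3 was too low to be tested. Their expression does not show the fusion itself, which was not tested. Of 15 FP-RMS marker genes tested, 0 rose and 4 fell, and of 24 muscle genes 2 rose and 6 fell, beside 7.02% and 22.9% of all genes. FGFR4, a receptor tyrosine kinase that PAX3-FOXO1 activates, stood at 474 TPM at 10 µM, 719 TPM at 1 µM and 904 to 981 TPM in DMSO, and fell by 0.69 ± 0.12 (adjusted p = 0.000372). ALK, another receptor tyrosine kinase under a super enhancer in these cells, stood at 23.6, 28.5 and 36.4 to 38.2 TPM and fell by 0.51 ± 0.13 (adjusted p = 0.00631). OLIG2 fell by 0.73 ± 0.19 (adjusted p = 0.00637). Both treated libraries were below all DMSO libraries for these 3 genes. Among the muscle genes MYOZ2, a Z-disc protein, was near 50 TPM at both doses (49.3 and 45.8) against 22.5 to 29.4 TPM in DMSO and rose by 0.89 ± 0.27 (adjusted p = 0.014). CDH15, the muscle cadherin, fell by 0.78 ± 0.12 (adjusted p = 0.000176) and MYBPH by 0.93 ± 0.27 (adjusted p = 0.0124). With the DMSO libraries averaged per concentration, 0 muscle genes were higher and 1 lower by limma, so MYOZ2 lost its call. At an unadjusted p below 0.05, 2 were higher and 7 lower in that fit. The FP-RMS markers kept their counts of 0 and 4. Leaving out the 10 µM library left 1 FP-RMS marker and 1 muscle call by count.

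Cholesterol synthesis genes, a list chosen with earlier results of these data known, were mostly higher than DMSO at both doses. INSIG1 (hg19 chr7:155089486-155101945), the sterol-sensing brake on SREBP, stood at 1067 TPM at 10 µM and 204 TPM at 1 µM. In DMSO it stood at 77.3 and 78.8 TPM (0.2%) and at 79.2 and 83.3 TPM (0.1%), a mean of 79.6 ± 2.26 (SD, n = 2 concentrations). Both treated libraries were above all DMSO libraries, by 13.4-fold and 2.56-fold of the DMSO mean. The other inhibitors of the flow cell reached 107 to 333 TPM at 10 µM and 79.9 to 188 TPM at 1 µM, so they too lay above most DMSO values, and UNC0638 above all of them at the same dose. INSIG1 rose by 2.54 ± 0.44 (log2, limma adjusted p = 0.000399) against DMSO and was higher by 2.43 at 10 µM within the flow cell (adjusted p = 0.00286). At 1 µM the within-flow-cell difference of 0.84 missed the threshold (adjusted p = 0.512).

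HMGCS1 (hg19 chr5:43287572-43313614), which makes HMG-CoA for the mevalonate pathway, stood at 828 TPM at 10 µM and 197 TPM at 1 µM. In DMSO it stood at 82.0, 83.8, 90.5 and 94.1 TPM, a mean of 87.6 ± 6.64 (SD, n = 2 concentrations). These are 9.45-fold and 2.25-fold of the DMSO mean, and neither treated library overlapped with DMSO. HMGCS1 rose by 2.20 ± 0.36 (log2, adjusted p = 0.000241). MSMO1, a sterol C4-methyl oxidase, stood at 414 and 114 TPM against 44.3 to 47.4 TPM and rose by 2.21 ± 0.35 (adjusted p = 0.0002). IDI1, the isopentenyl diphosphate isomerase, stood at 578 and 158 TPM against 77.9 to 82.1 TPM and rose by 1.91 ± 0.31 (adjusted p = 0.000255). For each of these 3 genes the order was the same: 10 µM above 1 µM, and 1 µM above every DMSO library.

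Of the 33 genes on the cholesterol synthesis and SREBP list, 32 were tested, and 20 rose and 0 fell against DMSO, beside 7.02% and 22.9% of all genes. The median change was 1.46 (log2) at 10 µM and 0.56 at 1 µM, against −0.23 and −0.10 over all genes. At 10 µM, 20 members were past 2-fold upward and 0 downward, and at 1 µM 4 and 0. Both treated libraries lay above all DMSO libraries for 23 of the 32 genes and below all of them for 2, where the shares over all genes were 10.4% and 30.9%. Against the other inhibitors of the flow cell, 13 members were higher and 2 lower at 10 µM by limma, beside 15.7% and 33.0% of all genes. At 1 µM 0 were called in either direction, and 0 also had an unadjusted p below 0.05. The 2 lower ones were FDPS, at 236 TPM at 10 µM, 341 TPM at 1 µM and 233 to 242 TPM in DMSO, and FADS1, a fatty acid desaturase, at 125, 241 and 195 to 214 TPM. The factor genes themselves were not called: SREBF2 stood at 273, 191 and 176 to 194 TPM, and SREBF1 at 35.2, 37.0 and 30.4 to 36.9 TPM. FDPS, FADS1, SREBF2 and SREBF1 were chosen after their values were seen. Of 6 genes of the LXR pathway, which exports sterol, 0 rose and 0 fell by limma, and 0 had an unadjusted p below 0.05. NPC1, the lysosomal cholesterol exporter, stood at 143 TPM at 10 µM, 93.0 TPM at 1 µM and 88.7 to 92.0 TPM in DMSO.

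Summed over the 33 sterol genes, the level was 10018 TPM at 10 µM, the highest of the 44 libraries, and 4434 TPM at 1 µM, the sixth highest. DMSO libraries held 2730 to 2914 TPM, and the other inhibitors of the flow cell held 3527 to 6755 TPM at 10 µM and 2981 to 4880 TPM at 1 µM. The sums at 10 µM and 1 µM were 3.55 and 1.57 times the DMSO mean. Without the 10 µM library 0 members were called by limma, with 15 higher and 0 lower at an unadjusted p below 0.05 and a median change of 0.56, and with the DMSO libraries averaged per concentration 18 were called.

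**Figure D2:**
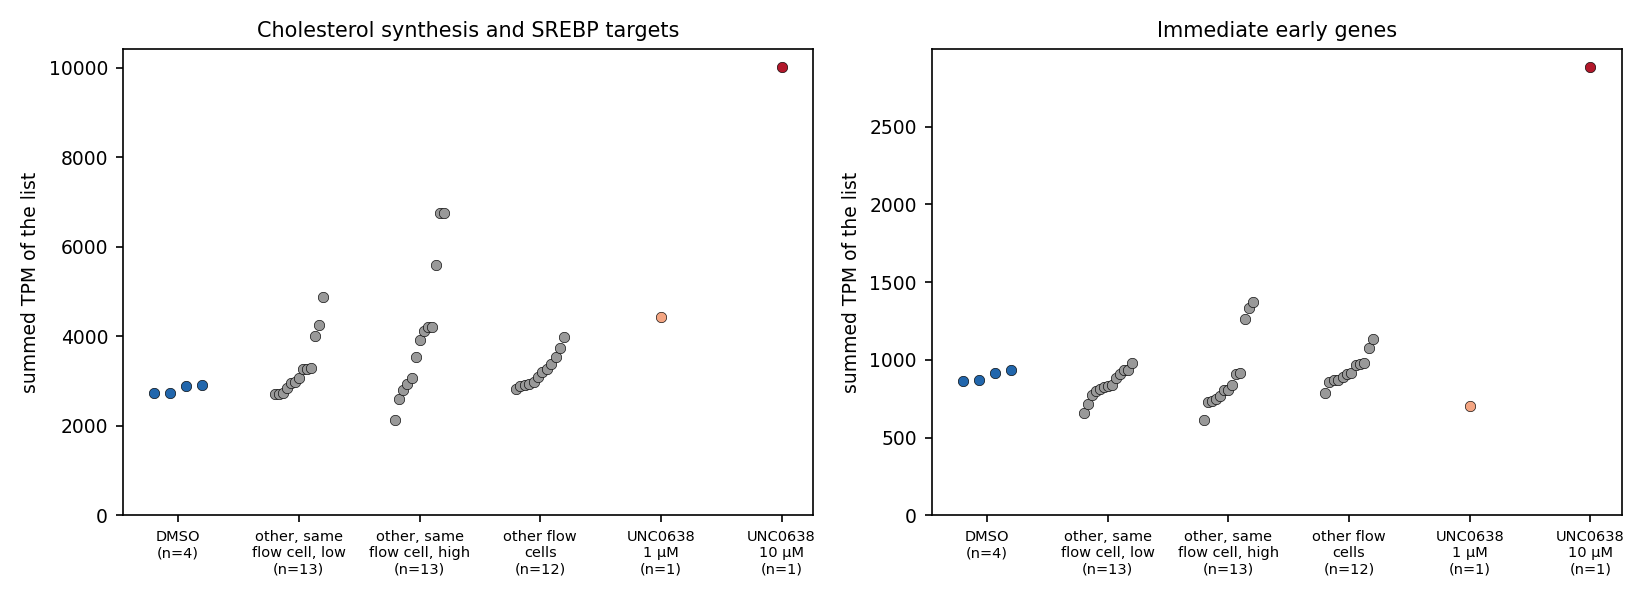
Summed TPM of 33 cholesterol synthesis and SREBP genes (left) and 24 immediate early genes (right), one point per library, for DMSO, other compounds of the UNC0638 flow cell at the low and high dose, compounds of other flow cells, and UNC0638 at each dose. The 10 µM library is the highest point in both panels (10018 and 2884 TPM), and the 1 µM library is above DMSO on the left only.

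Promoter sequences are shown for sterol genes whose transcripts were raised and for SREBF2, whose window alone in the list held the sterol element searched for. They come from RefSeq (GRCh38.p14) and cover the 250 bases before the start site, read 5′ to 3′ along the gene's strand. Capitals mark CCAAT, the box bound by NF-Y, in HMGCS1, INSIG1 and MSMO1 on either strand (its reverse complement reads ATTGG), and TCACNCCAC in SREBF2. HMGCS1 lies at chr5:43313413-43313662 (minus strand), INSIG1 at chr7:155297628-155297877 (plus), MSMO1 at chr4:165327419-165327668 (plus) and SREBF2 at chr22:41832855-41833104 (plus).
HMGCS1: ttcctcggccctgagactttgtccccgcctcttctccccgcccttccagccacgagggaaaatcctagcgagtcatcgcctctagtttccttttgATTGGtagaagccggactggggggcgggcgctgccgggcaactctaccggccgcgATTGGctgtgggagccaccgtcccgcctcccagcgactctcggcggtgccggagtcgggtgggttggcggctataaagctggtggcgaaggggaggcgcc
INSIG1: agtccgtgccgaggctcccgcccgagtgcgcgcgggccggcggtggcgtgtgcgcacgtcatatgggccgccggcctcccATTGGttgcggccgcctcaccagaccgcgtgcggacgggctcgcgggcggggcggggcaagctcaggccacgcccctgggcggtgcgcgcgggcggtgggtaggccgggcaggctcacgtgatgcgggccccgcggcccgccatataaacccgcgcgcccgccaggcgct
MSMO1: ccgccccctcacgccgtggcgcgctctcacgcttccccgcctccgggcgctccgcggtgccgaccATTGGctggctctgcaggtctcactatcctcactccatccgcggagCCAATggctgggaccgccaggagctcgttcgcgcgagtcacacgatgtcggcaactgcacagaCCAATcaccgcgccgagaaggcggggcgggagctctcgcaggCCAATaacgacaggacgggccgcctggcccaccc
SREBF2: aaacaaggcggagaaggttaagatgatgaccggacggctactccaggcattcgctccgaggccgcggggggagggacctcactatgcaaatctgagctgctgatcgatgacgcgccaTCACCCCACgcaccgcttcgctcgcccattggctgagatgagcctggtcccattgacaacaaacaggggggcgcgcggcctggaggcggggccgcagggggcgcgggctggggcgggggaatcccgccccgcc
CCAAT occurred 2 times in the window of HMGCS1, 1 time in that of INSIG1 and 4 times in that of MSMO1. Of the 32 sterol genes tested, 25 had a promoter entry and 19 of these (76%) held CCAAT, against 37.0% of 27305 genes with an entry and 41.9% of the 9948 tested genes with one. TCACNCCAC, searched on both strands like CCAAT and not overlapping it in letters, was in 1 of the 25 (4%), against 1.09% of all genes. A match of letters is a description and not a site of binding.

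At 10 µM alone, immediate early genes were far above every other library group. EGR1, a zinc finger factor of the growth signal response, stood at 646 TPM at 10 µM and 4.20 TPM at 1 µM, against 5.82, 5.52, 6.35 and 5.14 TPM in DMSO. The 10 µM value was 113-fold of the DMSO mean, while the 1 µM value lay below all 4 DMSO libraries. In the other inhibitors of the flow cell EGR1 ranged from 4.79 to 102 TPM at 10 µM and from 3.25 to 8.06 TPM at 1 µM. EGR1 had a log2 fold change of 3.11 ± 1.10 over both doses (limma adjusted p = 0.034), with an SE that includes the difference between the doses. Within the flow cell it was higher by 5.36 ± 1.25 at 10 µM (adjusted p = 0.00334).

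FOS, a subunit of AP-1, stood at 64.9 TPM at 10 µM and 0.555 TPM at 1 µM against 0.678 to 1.03 TPM in DMSO. It passed the filter on low values only through the 10 µM library, so its test is not used. JUNB, its partner, stood at 134 and 8.35 TPM against 10.3 to 11.7 TPM, and ZFP36, which destabilises early mRNAs, at 89.7 and 10.5 TPM against 8.42 to 10.3 TPM. MAFF, a small MAF factor, stood at 81.1 and 3.89 TPM against 3.91 to 4.44 TPM. For FOS, JUNB and MAFF the 1 µM library was below all 4 DMSO libraries and the 10 µM library above them. Over both doses JUNB rose by 1.57 ± 0.54 (log2, adjusted p = 0.0294), ZFP36 by 1.61 ± 0.42 (adjusted p = 0.00587) and MAFF by 1.96 ± 0.58 (adjusted p = 0.0133).

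Of 24 immediate early genes, 19 were tested, and 17 of these passed the filter in DMSO alone, without FOS and NR4A2. Of the 17, 11 rose and 0 fell against DMSO, beside 7.02% and 22.9% of all genes. Their median change was 1.95 at 10 µM and −0.06 at 1 µM, against −0.23 and −0.10 over all genes. At 10 µM, 14 of the 17 were past 2-fold upward, beside 7.23% of all genes. At that dose 15 were higher than in the other inhibitors of the flow cell, beside 15.7% of all genes. At 1 µM 0 of the 19 were called within the flow cell by limma in either direction, with 0 higher and 1 lower at an unadjusted p below 0.05. The summed level of the 24 genes was 2884 TPM at 10 µM, the highest of 44 libraries, and 701 TPM at 1 µM, with rank 42. DMSO held 863 to 938 TPM. Over all 19 genes 13 were called higher, FOS and NR4A2 among them. Calls of these genes carry no weight, since they passed the filter only with the UNC0638 libraries. The count over the 19 was 5 with the DMSO libraries averaged per concentration and 8 without the first 0.2% DMSO library. Without the 10 µM library the median change of the 19 was −0.06. A list of genes that ERK signalling induces, among them SPRY2, which damps the pathway, had a median change of 1.22 at 10 µM and −0.26 at 1 µM. Of 13 tested, 0 were called over both doses by limma (4 higher and 1 lower at an unadjusted p below 0.05) and 4 higher under median-ratio scaling, and 9 were higher at 10 µM within the flow cell. SPRY2 stood at 208 TPM at 10 µM, 69.3 TPM at 1 µM and 80.6 to 89.8 TPM in DMSO, and ETV5, an ETS factor downstream of ERK, at 186, 75.6 and 79.4 to 90.8 TPM. Both genes were above all DMSO libraries at 10 µM and below them at 1 µM.

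**Figure D3:**
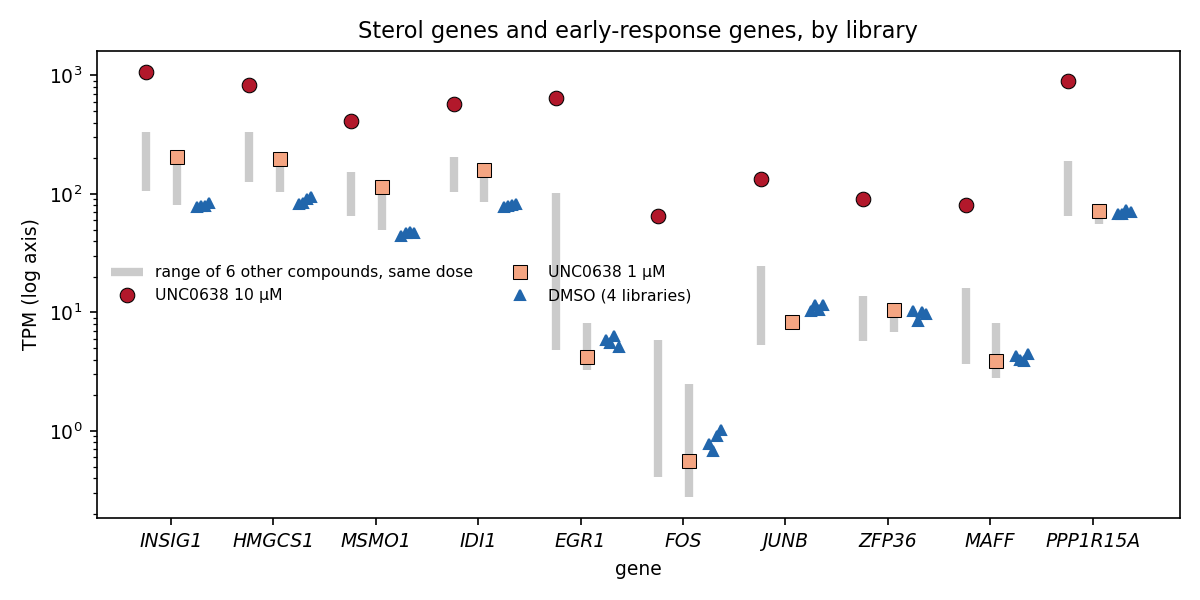
TPM (log axis) of 4 sterol genes and 6 early-response genes in each UNC0638 library (circle, 10 µM; square, 1 µM), the 4 DMSO libraries (triangles) and the range of the 6 other inhibitors of the flow cell at the same dose (grey bars). In the sterol genes the 1 µM points lie between DMSO and 10 µM (INSIG1 204 TPM), while in EGR1, FOS, JUNB and MAFF they lie below DMSO.

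The promoter of EGR1 is shown because this gene had the largest fold change of the named genes. It lies at chr5:138465229-138465478 on the plus strand (GRCh38.p14, RefSeq), covers the 250 bases before the start site, and carries in capitals its 2 matches to the CArG box, the element read by serum response factor.
EGR1: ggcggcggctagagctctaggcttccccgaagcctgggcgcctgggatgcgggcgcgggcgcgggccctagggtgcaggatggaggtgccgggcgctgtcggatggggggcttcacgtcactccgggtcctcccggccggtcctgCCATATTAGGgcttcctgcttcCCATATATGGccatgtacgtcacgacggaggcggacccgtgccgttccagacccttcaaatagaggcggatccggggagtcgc
The CArG box was in 1 of the 14 immediate early genes with a promoter entry (7.14%) and in 1.44% of all genes with one, and the other 13 windows hold no match in these 250 bases, from which nothing follows about the factor.

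Stress genes were called in both directions. Of 24 ATF4 targets, 5 rose and 2 fell, beside 7.02% and 22.9% of all genes. At 10 µM 7 were higher and 7 lower than in the other inhibitors of the flow cell, beside 15.7% and 33.0% of all genes. PPP1R15A, which brings a phosphatase to eIF2 alpha, stood at 896 TPM at 10 µM, 72.2 TPM at 1 µM and 67.8 to 73.7 TPM in DMSO, and rose by 1.85 ± 0.48 (log2, adjusted p = 0.00602). ATF3 stood at 218, 41.8 and 31.8 to 34.8 TPM and rose by 1.48 ± 0.36 (adjusted p = 0.00364), and DDIT3, a factor linked to cell death under stress, at 178, 62.7 and 39.7 to 44.3 TPM. Both treated libraries lay above all DMSO libraries for ATF3 and DDIT3, whereas PPP1R15A overlapped with DMSO at 1 µM. Of 10 serine and one-carbon synthesis genes, a further group that ATF4 serves, 0 rose and 1 fell, and 7 were lower at 10 µM within the flow cell, with a median change against DMSO of −0.63. SHMT1, the cytosolic serine hydroxymethyltransferase, stood at 7.07 TPM at 10 µM, 32.2 TPM at 1 µM and 36.6 to 40.8 TPM in DMSO.

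Of 16 genes of the unfolded protein response, 1 rose and 4 fell, and within the flow cell at 10 µM 1 was higher and 10 lower, beside 7.02% and 22.9% of all genes against DMSO and 15.7% and 33.0% within the flow cell. SDF2L1, a co-chaperone of the endoplasmic reticulum, stood at 5.64 TPM at 10 µM, 42.9 TPM at 1 µM and 42.2 to 50.1 TPM in DMSO, and fell by 1.47 ± 0.37 (adjusted p = 0.00442). DNAJB9, another co-chaperone, was the member that rose, at 82.0, 20.6 and 20.1 to 23.5 TPM. In both genes the 1 µM value lay within the range of DMSO. The summed levels of the serine, unfolded protein response and lysosome lists were the lowest of the 44 libraries at 10 µM. Those of the ATF4, p53 and BCL2 lists were the highest. They stood at 3806, 1775 and 1410 TPM at 10 µM, against 1909 to 1981, 998 to 1048 and 799 to 840 TPM in DMSO.

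Of 18 p53 targets tested, 5 rose and 2 fell, and 9 were higher and 5 lower at 10 µM within the flow cell, where the shares over all genes were 7.02% and 22.9%, and 15.7% and 33.0%. CDKN1A, the p21 inhibitor of cyclin-dependent kinases, stood at 164 TPM at 10 µM, 33.3 TPM at 1 µM and 24.9 to 29.2 TPM in DMSO, and rose by 1.45 ± 0.40 (adjusted p = 0.00931). GADD45A stood at 695, 169 and 174 to 196 TPM, and GDF15, a secreted stress factor, at 121, 17.6 and 13.95 to 19.6 TPM. In the BCL2 family 1 of 13 rose and 1 fell. MCL1, a survival factor with a short-lived mRNA, stood at 787, 224 and 204 to 221 TPM and rose by 0.97 ± 0.24 (adjusted p = 0.00382), and BOK, a pro-death member, at 4.96, 29.0 and 29.3 to 34.1 TPM. The 1 µM library was within or next to the DMSO range in GADD45A, GDF15, MCL1 and BOK. Once the 10 µM library was left out, 0 members were called by limma in the ATF4, serine, unfolded protein response, p53 and BCL2 lists. At an unadjusted p below 0.05, 1 member of the unfolded protein response and 2 of the p53 list were then higher and 1 of the p53 list lower.

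Against DMSO, cell cycle and growth genes were called lower at shares near the 22.9% of all genes. Within the flow cell at 10 µM, 0 of 20 mitosis genes were higher and 12 lower by limma. For the 21 ribosome biogenesis and MYC target genes these counts were 0 and 10, beside 15.7% and 33.0% of all genes. Of 20 mitosis genes 0 rose and 6 fell (2 to 4 without 1 of the 4 DMSO libraries, and 1 under median-ratio scaling or with DMSO averaged per concentration), with a median change of −0.46 at 10 µM and −0.04 at 1 µM. CDC20, which activates the anaphase-promoting complex, stood at 182 TPM at 10 µM, 373 TPM at 1 µM and 425 to 448 TPM in DMSO, and fell by 0.74 ± 0.16 (adjusted p = 0.00176). PLK1, a mitotic kinase, stood at 134, 172 and 211 to 224 TPM. Of 22 replication genes 0 rose and 5 fell, while 2 were higher and 8 lower at 10 µM within the flow cell, beside 15.7% and 33.0% of all genes. Those that fell included CDC45, part of the replicative helicase, at 15.8, 74.7 and 67.5 to 71.5 TPM, and TK1 at 68.7, 136 and 170 to 180 TPM. CDC45 was thus above DMSO at 1 µM and below it at 10 µM, while CDC20, PLK1 and TK1 were below DMSO at both doses. Of 21 ribosome biogenesis and MYC target genes 0 rose and 6 fell. CAD, the pyrimidine synthesis enzyme, stood at 45.9, 97.4 and 129 to 133 TPM, and POLR1A, the large subunit of RNA polymerase I, at 28.6, 44.3 and 60.1 to 62.8 TPM. POLR1A was also lower within the flow cell at 1 µM (−0.50, adjusted p = 0.0498). Leaving the 10 µM library out, 0 members of these 3 lists were called by limma, and at an unadjusted p below 0.05 1 ribosome biogenesis gene was higher and 3 were lower.

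Of 24 autophagy genes 7 rose and 5 fell, beside 7.02% and 22.9% of all genes. GABARAPL1 stood at 21.8 TPM at 10 µM, 4.49 TPM at 1 µM and 3.36 to 3.53 TPM in DMSO, and MAP1LC3B, like it a ubiquitin-like protein of the autophagosome membrane, at 149, 72.8 and 61.6 to 69.9 TPM. Both were above all DMSO libraries at both doses, whereas ATG2A (6.44, 13.2 and 17.6 to 19.7 TPM) and ATG7 (6.83, 15.8 and 16.1 to 17.7 TPM) were below them. At 10 µM within the flow cell, 7 autophagy genes were higher and 6 lower, beside 15.7% and 33.0% of all genes. Of 25 lysosome genes 2 rose and 10 fell against DMSO, and 1 was higher and 15 lower at 10 µM within the flow cell. NAGLU, a heparan sulfate glucosaminidase, stood at 23.3, 73.9 and 94.7 to 102 TPM and fell by 1.22 ± 0.22 (adjusted p = 0.000565). CTSD, the protease cathepsin D, stood at 127, 171 and 233 to 242 TPM. By count 1 autophagy and 1 lysosome call were left without the 10 µM library.

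Of 14 heat shock genes 0 rose and 4 fell, of 13 NRF2 targets 0 rose and 4 fell, of 19 hypoxia and glycolysis genes 1 rose and 1 fell, and of 3 metallothionein-list genes 0 rose and 0 fell by limma, none of them with an unadjusted p below 0.05. HSPA8, the constitutive HSP70, stood at 1044 TPM at 10 µM, 2330 TPM at 1 µM and 2298 to 2321 TPM in DMSO. GCLC, the rate-limiting enzyme of glutathione synthesis, stood at 0.538, 3.25 and 3.74 to 4.07 TPM, and BNIP3L, a mitophagy receptor, at 267, 170 and 150 to 156 TPM. SLC30A1, a zinc exporter, stood at 59.0, 11.5 and 12.2 to 13.7 TPM and was higher than in the other inhibitors at 10 µM (1.59, adjusted p = 0.00816). Of 13 housekeeping genes 5 rose and 3 fell. These counts too stand beside 7.02% and 22.9% of all genes. ACTB stood at 1748 TPM at 10 µM, 3878 TPM at 1 µM and 3799 to 4324 TPM in DMSO.

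**Figure D4:**
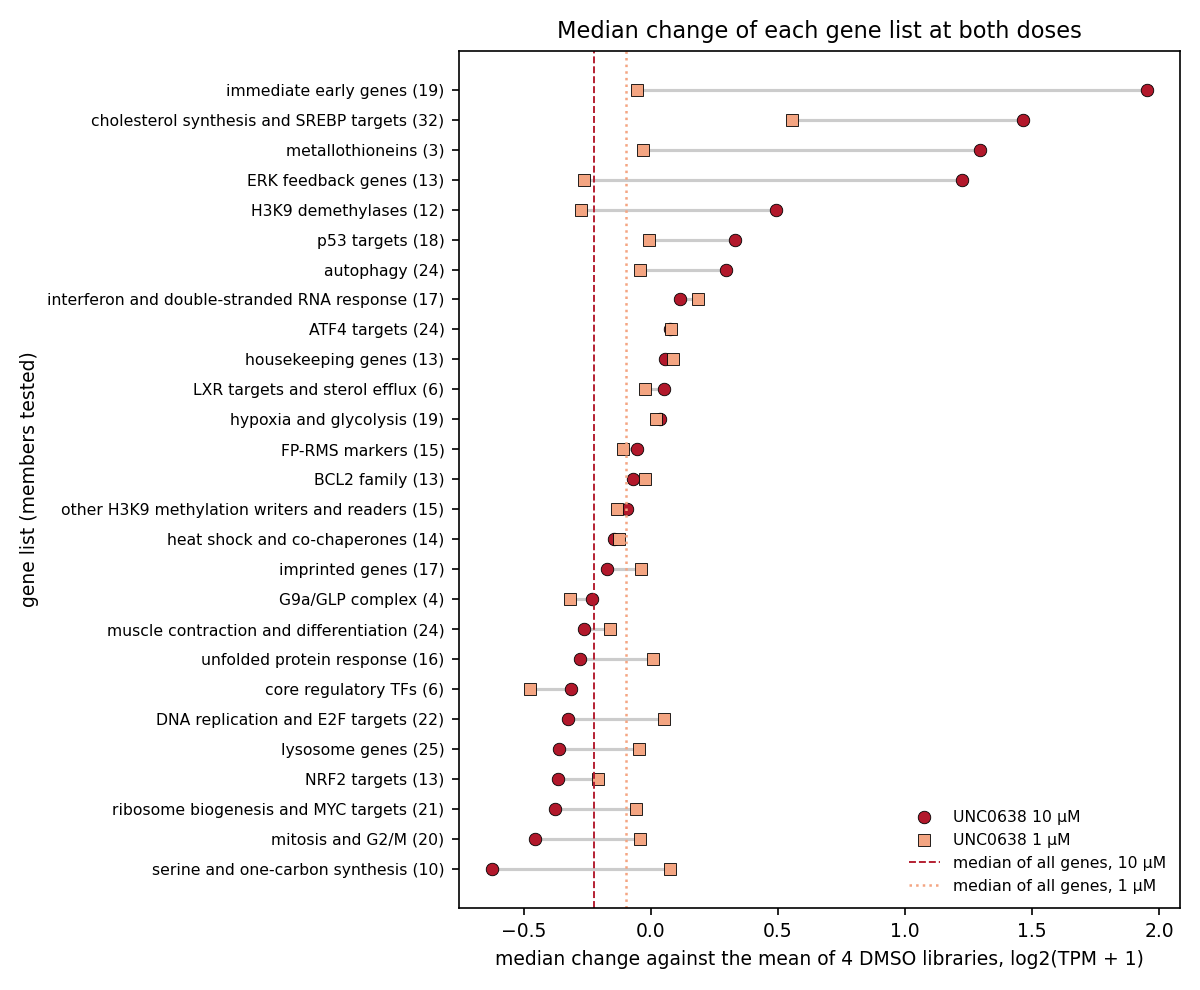
Median change against the mean of the 4 DMSO libraries, in log2(TPM + 1), of each gene list with at least 3 members tested, at 10 µM (circles) and 1 µM (squares), with dashed and dotted lines for the medians of all genes at 10 µM (−0.23) and 1 µM (−0.10). Immediate early genes (1.95 and −0.06) and sterol genes (1.46 and 0.56) lie farthest to the right at 10 µM; at that dose the medians of the other H3K9, FP-RMS marker and BCL2 lists change sign under median-ratio scaling.

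Genes outside the lists were also among those with large fold changes. MMP3, a matrix metalloproteinase, stood at 25.2 TPM at 10 µM, 10.1 TPM at 1 µM and 2.11 to 3.29 TPM in DMSO, and rose by 2.22 ± 0.32 (log2, adjusted p = 0.0001). PRRX1, a mesenchymal homeobox factor, stood at 26.3, 8.14 and 2.28 to 3.81 TPM and rose by 1.98 ± 0.29 (adjusted p = 0.000105). Both genes, and LINC00972 (34.5, 13.4 and 4.02 to 5.27 TPM), were above all DMSO libraries at both doses. Among the lowest, LFNG, a glycosyltransferase that modifies Notch receptors, stood at 8.99 TPM at 10 µM, 96.5 TPM at 1 µM and 120 to 132 TPM in DMSO, and fell by 2.02 ± 0.46 (adjusted p = 0.00229). GALK1, the galactokinase, stood at 4.82, 32.9 and 45.5 to 54.7 TPM. JMJD4 stood at 0.949, 20.9 and 24.8 to 26.4 TPM and PRR5, a subunit of mTORC2, at 2.89, 20.1 and 30.8 to 34.0 TPM. All 4 were below DMSO at both doses, with the larger gap at 10 µM. TMEM129, SLC27A4, ASB13, MYL5, PTPRCAP and PYCRL completed the coding genes of that group, with log2 fold changes of −1.96 to −1.75. LOC100288842 and LINC01547 had 0 reads at 10 µM, which allows up to 3 reads, or 2.11 and 0.672 TPM, so that they were at least 5.30-fold and 17.2-fold lower than the DMSO mean at that dose.

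Genes that lie under silent chromatin in most somatic cells were hardly detected. Of 30 germline and cancer-testis genes in the table, 19 were at 0 in all 4 DMSO libraries and 1, the meiotic gene SYCP3, was tested, with 0 TPM at 10 µM, 1.41 TPM at 1 µM and 0.539 to 1.16 TPM in DMSO. Summed over the list, the level was 2.34 TPM at 10 µM and 3.52 TPM at 1 µM against 1.51 to 2.16 TPM in DMSO. Of 10 globin genes 0 were tested and 9 were at 0 in all 4 DMSO libraries. The globin genes summed to 2.79 TPM at 10 µM and 0.66 TPM at 1 µM against 0 to 0.50 TPM in DMSO. In the other inhibitors of the flow cell the sum was 0 to 0.77 TPM at 10 µM and 0 to 0.46 TPM at 1 µM. These sums are near the floor, and their difference was not tested. Of 7312 genes at 0 in all DMSO libraries, 26 reached 1 TPM at 10 µM and 21 at 1 µM, and 0 did so at both doses. The other inhibitors of the flow cell gave 11 to 45 and 14 to 27 such genes, so UNC0638 lay within their range, at the low depth of its libraries.

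Of 17 imprinted genes tested, 0 rose and 3 fell, beside 7.02% and 22.9% of all genes. MAGEL2 stood at 10.6 TPM at 10 µM, 21.8 TPM at 1 µM and 28.4 to 33.7 TPM in DMSO, and NDN, its neighbour, at 18.2, 30.9 and 36.3 to 40.9 TPM. IGF2, a growth factor highly expressed in rhabdomyosarcoma, stood at 50.01 and 62.3 TPM, while the DMSO libraries held 124 and 130 TPM on one flow cell and 67.8 and 69.1 TPM on the other. IGF2 was thus below all DMSO libraries, and the DMSO libraries of one flow cell were also well below those of the other. Within the flow cell of UNC0638 it was lower by 1.05 at 10 µM (adjusted p = 3.2e-05) and by 0.96 at 1 µM (adjusted p = 0.00639). Of 17 interferon and double-stranded RNA response genes tested, 2 rose and 4 fell, against the same shares. IRF9 stood at 68.0, 32.1 and 24.3 to 27.3 TPM, and EIF2AK2, the RNA-sensing kinase PKR, at 19.5, 18.2 and 27.8 to 28.7 TPM. With 10 µM left out, 0 members of either list were called by limma, with 3 imprinted genes and 1 interferon gene lower at an unadjusted p below 0.05.

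Some of these counts moved by more than 1.5 times without a single DMSO library. The 2 higher muscle, lysosome and interferon genes and the 2 lower ATF4 targets became 1 whichever DMSO library was left out. The 4 lower genes of the unfolded protein response became 2 without the second library of either concentration, and without the first 0.1% library 0 were higher by limma (2 at an unadjusted p below 0.05). The 5 higher housekeeping genes became 3 without any library but the first at 0.1%, and the 3 lower ones 1 without the second at 0.1%. The 1 lower hypoxia gene was lost by limma, with 2 lower at an unadjusted p below 0.05, without any library but the second at 0.2%. With DMSO averaged per concentration, lower calls went from 2 to 1 in the demethylases, 6 to 1 in the muscle list, 5 to 1 in replication, 6 to 3 in ribosome biogenesis, 4 to 1 in heat shock, 10 to 5 in lysosome, 5 to 2 in autophagy and 4 to 2 in unfolded protein response genes, and higher calls from 7 to 4 in autophagy, 5 to 3 in p53 and 5 to 2 in housekeeping genes. In that fit the interferon list had 0 calls by limma, with 2 higher and 4 lower at an unadjusted p below 0.05. The 2 higher muscle, 2 higher lysosome and 1 higher unfolded protein response genes and the 2 lower ATF4 targets became 0 by limma there too. In each of these 4 cases 2 genes had an unadjusted p below 0.05 in that direction.

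Markers of other cell types stayed low. The 10 blood cell markers summed to 14.5 TPM at 10 µM, the second highest of 44 libraries, and to 4.92 TPM at 1 µM against 4.44 to 4.97 TPM in DMSO. Of these, 5 were at 0 in all DMSO libraries, and PTPRC and MS4A1 were among those at 0 in the UNC0638 libraries too. CD14 made up most of the 10 µM sum, at 9.21 TPM against 0.727 TPM at 1 µM and 1.09 to 1.94 TPM in DMSO. The 10 epithelial and endothelial markers summed to 4.72 TPM at 10 µM and 1.72 TPM at 1 µM against 1.299 to 1.81 TPM, with 0 tested. The part of other cells in the results above was not tested.

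The change at 10 µM was weakly related to gene length (End minus Start in the tables). Across 13867 genes, which are not independent replicates, Spearman's rho between the change and log10 length was 0.141 at 10 µM and −0.071 at 1 µM, and Pearson's r was 0.115 and 0.036. Each DMSO library against the other 3 gave a rho of −0.078 to 0.056, a range that holds the 1 µM value and not the 10 µM value. The other inhibitors of the flow cell gave 0.016 to 0.269 at 10 µM and 0.040 to 0.341 at 1 µM, so that the 10 µM value lay among them and the 1 µM value below all 6. Over the compound libraries of the screen rho ran from −0.118 to 0.341, with 11 above the 10 µM value and 5 below the 1 µM value.

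At 10 µM the median change was −0.40 for 3862 genes under 10 kb, −0.26 for 3774 genes of 10 to 30 kb, −0.14 for 3977 genes of 30 to 100 kb and −0.07 for 2254 genes of 100 kb or more. The share of genes at least 2-fold lower went from 24.5% in the shortest class to 8.47% in the longest. At 1 µM the medians ran the other way, from −0.08 in the shortest class to −0.17 in the longest. The share at least 2-fold lower went down at 1 µM too, from 5.52% to 0.222%. So did the share at least 2-fold higher, from 2.67% to 0.311%, so that the shortest class was wider in both directions. With the other inhibitors as reference, the medians of the shortest and longest classes were −0.31 and −0.14 at 10 µM and −0.01 and −0.26 at 1 µM.

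**Figure D5:**
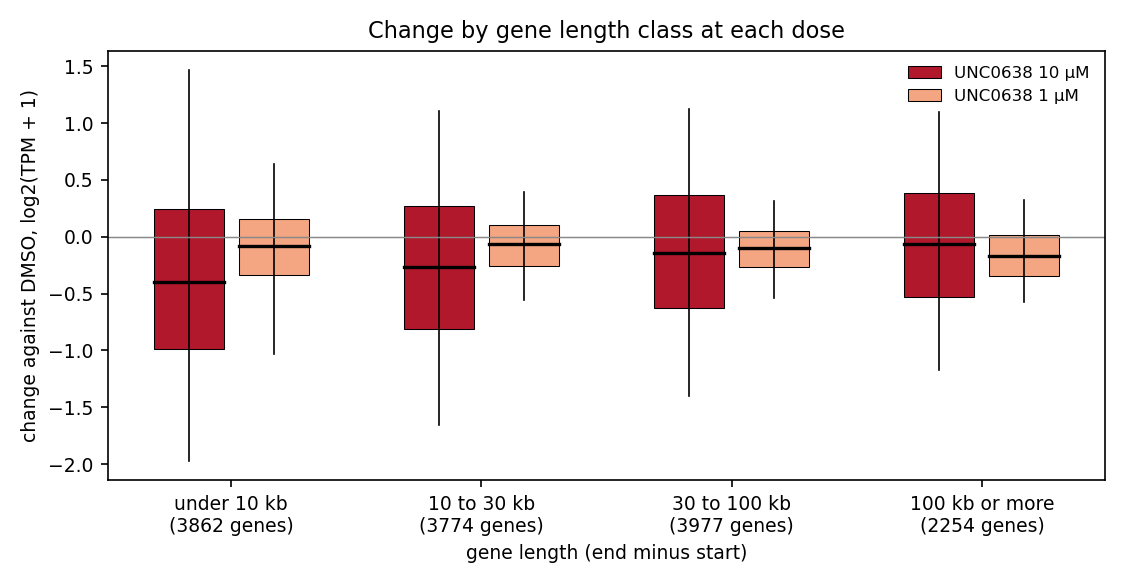
Change against DMSO in log2(TPM + 1) by gene length class at 10 µM (dark) and 1 µM (light); boxes span the middle 50% of genes, thick lines mark medians and whiskers run from the lowest 5% to the highest 5%. Medians go from −0.40 to −0.07 with length at 10 µM and from −0.08 to −0.17 at 1 µM.

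The dose step of UNC0638, from 1 µM to 10 µM, was tested against the same step of the 6 other inhibitors, in which a shift of the flow cell cancels. It was higher for 2457 genes (17.7%) and lower for 3433 (24.8%) by limma. Among the sterol genes 8 of 32 had a higher step and 2 a lower one, among immediate early genes that passed the filter in DMSO alone 15 of 17 and 0, and among ERK feedback genes 11 of 13 and 0. The step of EGR1 exceeded that of the other compounds by 5.66 (log2, adjusted p = 0.0226), and that of INSIG1 by 1.59 (adjusted p = 0.0497). MSMO1 missed the threshold (1.296, adjusted p = 0.0572). The step of MYOD1 was lower by 0.81 (adjusted p = 0.00365) and that of PAX3 higher by 1.16 (adjusted p = 0.0013), since PAX3 was low at 1 µM. SPC24, a kinetochore protein, had the lowest step of the named genes, −3.75 (adjusted p = 4.54e-05), and stood at 1.52 TPM at 10 µM, 31.2 TPM at 1 µM and 22.9 to 25.7 TPM in DMSO.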

How the data were processed

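Poly-A RNA of FP-RMS cells was sequenced by the authors, who used STAR to align paired reads to hg19 and RSEM to quantify genes. They deposited TPM, 1 value per gene and library, which the authors had scaled for length and to a fixed total. The submitters' notes also list edgeR, whose role is not given in the sources used here. Each library's TPM were whole multiples of a step in 23037 of 23037 genes above 0 (100%, within a tolerance of 0.002), and the read numbers so recovered served for depth, for the comparison of DMSO libraries with counting noise and for 1 alternative chosen after the data were seen (voom). Low depth limits the UNC0638 values most, and intervals from reads would cover counting error only.

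Log2(TPM + 1) was tested with limma 3.58.1 (R 4.3.3, moderated by eBayes with a trend on expression, two-sided, Benjamini-Hochberg over 13867 genes, threshold 0.05). A fold change on this scale understates the change of low genes. Groups came from the labels. One fit held all 44 screen libraries, with each compound's doses as 1 group. A fit of 14 libraries compared each UNC0638 dose with 6 other inhibitors of the flow cell, and, with compound as a block, its dose step with theirs. The fits were also run on simulated counts. These held no flow cell effect and no differences between the other compounds, so that run does not cover either. Python 3.11.15 with pandas 2.3.3, numpy 2.4.6 and matplotlib 3.10.9 did the rest. Promoters and start sites are from RefSeq, gene positions from the tables.

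Named genes are EHMT1, EHMT2 and the CR TFs, the 12 highest and 12 lowest genes called against DMSO and the flow cell with a mean of at least 5 TPM, up to 4 called members of each list (or 2 by level) and 5 dose-step genes each way. Small RNA genes were left out, also for the dose step, for which the rule did not state it. Some genes that the rule names are not reported here. The members and lists were chosen with earlier results of these data known. Alternatives were another pseudocount, median-ratio scaling over 7156 genes, other filters, other references, fewer samples, array weights and leaving out each library.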

Additional observations from a re-analysis of the deposited data

Results flagged for a closer look

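These values are given because the effect of the 10-fold dose step under UNC0638 differed from that under the 6 other inhibitors of its flow cell by a test of the difference itself (limma, adjusted p below 0.05). That held for 2457 genes upward and 3433 downward, and for 86 of the 114 named genes. Among the genes always named, the step differed by −0.51 (log2) in EHMT1, −0.81 in MYOD1, −0.69 in MYOG, 0.71 in FOXF1 and 1.16 in PAX3. The largest upward differences among the named genes were 5.66 in EGR1, 4.89 in LOC100129216, 4.86 in FOS, 3.86 in MAFF and 3.58 in JUNB. FOS passed the filter on low values only through the 10 µM library, so its value is a description. LOC100129216 stood at 21.2 TPM at 10 µM and had 0 reads at 1 µM, against 5.15 to 7.86 TPM in DMSO, where at most 12 reads stand behind a value. The largest downward differences were −3.75 in SPC24, −3.37 in PYCRL, −3.32 in JMJD4, −3.17 in PIGV and −3.16 in PEX16. PIGV stood at 1.05 TPM at 10 µM, 16.7 TPM at 1 µM and 12.1 to 14.5 TPM in DMSO, and PEX16 at 0.860, 15.1 and 13.03 to 14.3 TPM, so that both were above all DMSO libraries at the lower dose and below them at the higher one. The UNC0638 arm of this test is 1 library per dose.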

How the results depend on the processing

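No paired analysis was possible because the UNC0638 libraries carry no replicate numbers, and the compound block of the dose step pairs doses, not replicates. Depth, 1 library per dose and a flow cell without DMSO limit every UNC0638 value, and limma gives these shallow libraries the weight of deeper ones. Over both doses the counts higher and lower than DMSO (974 and 3179) became 1570 (higher) under median-ratio scaling, 8 and 19 in the fit of 6 libraries (869 and 3037 at an unadjusted p below 0.05), 180 and 512 with a log2 fold change of at least 1, 397 and 1783 with DMSO libraries averaged per concentration, and 0 and 0 by limma with array weights (164 and 1014 unadjusted). Leaving out a library gave 70 to 2573 and 190 to 4904. Voom on recovered reads gave 1101 and 2431. At 1 µM the genes past 2-fold (140 and 250) became 262 and 579 with a pseudocount of 0.1, and 51 and 62 with a mean of at least 5 TPM. Against all 13 other compounds of the flow cell, 1127 and 2574 genes differed at 10 µM, and 6 and 0 (365 lower unadjusted) at 1 µM. There the 10 higher genes became 22 under scaling, 5 with a mean of at least 5 TPM and 162 with no filter, and the 95 lower genes 196 with a pseudocount of 0.1, 27 under scaling, 268 with no filter, and 17 to 62 when 1 compound was left out. The dose step kept its counts within 1.5 times, without the compound block too (1852 and 2635).

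With length, rho at 10 µM was 0.080 and r 0.054 with the flow cell as reference, and r 0.180 with a pseudocount of 0.1. At 1 µM rho was −0.271 with the flow cell as reference and −0.153 with a mean of at least 5 TPM, and r was −0.129, −0.097, 0.153 (pseudocount of 0.1) and −0.075 (without genes under 1 kb).

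Of 100 named genes called against DMSO, 98 kept the call with a pseudocount of 0.1, 90 under scaling, 89 with the flow cell as reference, 87 to 91 without a DMSO library, 65 with averaged DMSO, 1 in the fit of 6 libraries, 99 without the 1 µM library and 5 without the 10 µM library. The log2 fold change of MYCN turned to 0.055 under scaling. Others turned direction when a library was left out, with the lowest and highest value given here. Without the 1 µM library these were PAX3 (−1.06 to 0.15) and LOC100129216 (−2.86 to 1.62). Without the 10 µM library they were FOXF1 (−0.29 to 0.67), EGR1 (−0.36 to 6.59), FOS (−0.24 to 5.16), MAFF (−0.072 to 3.998), ZNF644 (−0.023 to 0.99), KDM1A (−1.26 to 0.041), TMEM8C (−1.62 to 0.13), DNAJB9 (−0.11 to 1.84), SYCP3 (−0.81 to 0.46), GADD45A (−0.12 to 1.91), CDC45 (−2.06 to 0.11), JUNB (−0.36 to 3.50), SPRY2 (−0.29 to 1.28), ETV5 (−0.17 to 1.11), HSPA8 (−1.15 to 0.012), MT2A (−0.032 to 0.41), SLC30A1 (−0.15 to 2.11), CD14 (−0.50 to 2.06), SPC24 (−3.33 to 0.34), PIGV (−2.80 to 0.31) and PEX16 (−2.97 to 0.14). In each of these the 2 doses lie on opposite sides of the DMSO mean. The cause was not tested.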
